A study of Mus musculus with 6 samples.

Results

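The mitochondrial genome is represented in the gene count table by 37 of 54532 genes, taken as every gene whose symbol starts with mt-. They comprise 13 protein-coding, 2 ribosomal RNA (rRNA) and 22 transfer RNA (tRNA) genes, and GENCODE release M21 places all of them on chromosome M of GRCm38. The libraries were made from abdominal aorta of mice on day 7 after aneurysm induction, an aneurysm being a local widening of the artery. There were 3 libraries from Olfr2 KO mice and 3 from WT mice. Olfr2 encodes a G protein-coupled receptor of the olfactory family, and the comparison asks which transcripts of the injured aorta differ where it is missing. The induction was shared by both groups. Its method, the way the Olfr2 allele was made, and the age and number of animals behind each library are missing from the labels, so the spread between libraries may be partly technical.

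Mitochondrial DNA is a small circle that is transcribed from both strands into long precursors. The precursors are cut mostly at the tRNAs that lie between the other genes, so its mRNAs, rRNAs and tRNAs come from shared precursors and are not independent of each other. The 13 proteins are core subunits of respiratory complexes I, III and IV and of ATP synthase (complex V), which pump protons and use the gradient to make ATP. The rRNAs and tRNAs serve the ribosome inside the organelle, while nuclear genes supply all other subunits and the factors that copy, transcribe and translate mitochondrial DNA. Most mitochondrial mRNAs carry a poly(A) tail and are caught by the poly-T beads used here, whereas the rRNAs have short tails and mature tRNAs none.

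Library totals ranged from 17248918 to 21872027 gene counts. Olfr2 had 0 counts in every KO and WT library. A count of 0 allows up to 3 counts, or 0.14 to 0.182 CPM (counts scaled to a common library total) across the 6 libraries, for counting error alone, so Olfr2 does not check the genotype labels. All 10 markers of smooth muscle, the main cell of the aortic wall, passed the filter on low counts.

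Mitochondrial protein-coding genes supplied a larger share of the counts in every KO library than in any WT library. The share was 5.16, 2.48 and 2.22% in KO replicates 1 to 3, against 1.76, 1.78 and 1.5% in WT replicates 1 to 3. KO replicate 1 stood far above the other KO libraries, which lay closer to the WT libraries than to it. The means were 3.29 ± 1.63% in KO and 1.68 ± 0.155% in WT (SD, n = 3 each), a ratio of 1.95 (two-sided exact permutation p = 0.1, the lowest value possible with 3 against 3). Without KO replicate 1 the KO mean was 2.35% and the ratio 1.4. In bulk tissue, a difference in which cells are present and a difference in RNA per cell cannot be told apart.

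The rRNA genes gave 0.138, 0.103 and 0.0937% of counts in KO and 0.0739, 0.0902 and 0.0547% in WT. These groups did not overlap either, although KO replicate 3 and WT replicate 2 were close (ratio of means 1.53, exact permutation p = 0.1, two-sided). For the tRNA genes the shares were 0.0163, 0.00892 and 0.00598% in KO and 0.00543, 0.00631 and 0.00508% in WT. Here KO replicate 3 lay below WT replicate 2, so the groups overlapped (exact permutation p = 0.2, two-sided). The ratio of rRNA to mitochondrial protein-coding counts was 0.0268, 0.0413 and 0.0422 in KO and 0.042, 0.0506 and 0.0364 in WT, with overlapping groups (exact permutation p = 0.5, two-sided). KO replicate 1 thus had the most rRNA counts but the fewest per mRNA count.

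**Figure D1:**
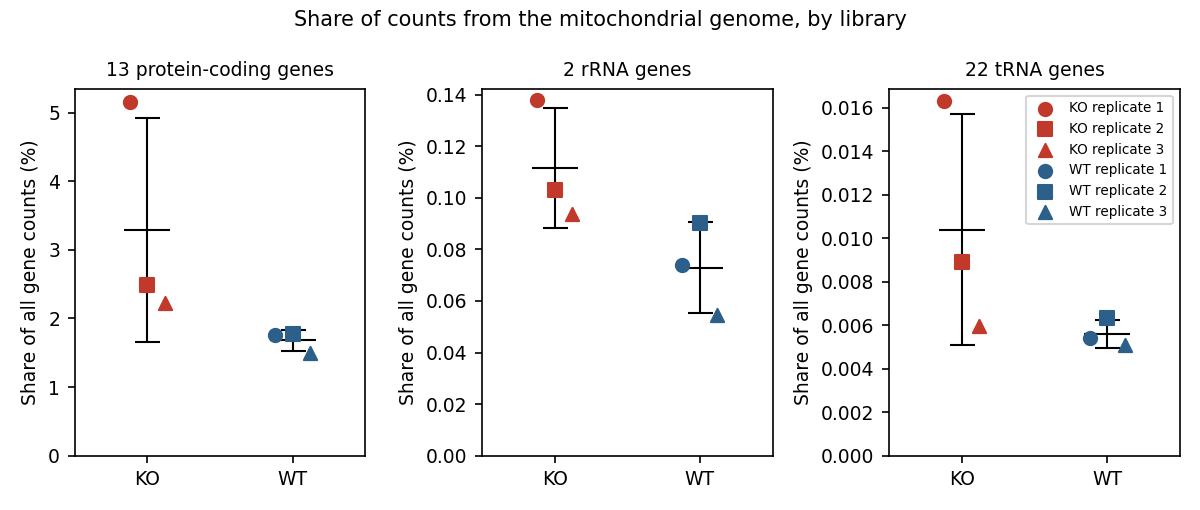
Share of all gene counts (%) from the 13 protein-coding, 2 rRNA and 22 tRNA genes of the mitochondrial genome, with a symbol for each library, KO left of WT, and bars for the mean ± SD (n = 3 each). KO replicate 1 is the highest library in each panel, at 5.16% for protein-coding genes, and the groups overlap for the tRNA genes alone.

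Of the 37 genes, 20 passed the filter on low counts: 12 protein-coding, both rRNA and 6 tRNA genes. Each of the 20 averaged more in KO than in WT. However, 0 passed edgeR's quasi-likelihood test at an adjusted p under 0.05 over all genes, where 2 of 16237 genes (0.0123%) passed. Without adjustment, 16 of the 20 had a p under 0.05 by the same test, all higher in KO, against 5.23% of all tested genes for that direction. KO libraries lay above WT libraries without overlap for 14 of the 20, against 7.83% of all tested genes, and below them for 0 of the 20, against 9.01%. DESeq2 called 3 of the 20, namely mt-Rnr2, mt-Nd4l and mt-Tp, where it called 1.08% of genes as higher in KO, and limma-voom called 0, with 14 at an unadjusted p under 0.05 against 5.28% of all genes. The median log2 fold change was 0.95 for the 12 protein-coding genes, 0.56 for the rRNA genes and 0.93 for the 6 tRNA genes, against 0.006 for all tested genes.

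Complex I, which takes electrons from NADH, has 7 mitochondrial subunits, and together they made up 1.94, 0.878 and 0.79% of counts in KO and 0.611, 0.557 and 0.51% in WT. mt-Nd2, a proton-pumping subunit (chrM:3914-4951, plus strand), stood at 3465, 1588 and 1443 CPM in KO and 907, 838 and 846 CPM in WT. The WT libraries were close together and all KO libraries lay well above them. Its log2 fold change was 1.33 (SE 0.31), at an edgeR adjusted p of 0.155. mt-Nd4, another proton-pumping subunit (chrM:10167-11544, plus strand), stood at 4354, 2004 and 1989 CPM in KO and 1322, 1306 and 1179.5 CPM in WT. KO replicates 2 and 3 agreed closely here, and both exceeded every WT library (log2 fold change 1.13, SE 0.30, edgeR adjusted p = 0.198).

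mt-Nd1, which encodes the subunit next to the quinone site of complex I, stood at 6560.4, 2573 and 2819 CPM in KO and 2012, 2360.3 and 1782 CPM in WT. The lowest KO library was only slightly above WT replicate 2 (log2 fold change 0.96, SE 0.34). mt-Nd5, a proton-pumping subunit, stood at 3568, 1685 and 1323 CPM in KO and 1274, 983 and 999 CPM in WT, and KO replicate 3 was near WT replicate 1 (log2 fold change 1.01, SE 0.34). mt-Nd6 is the only protein-coding gene on the minus strand, and 14 of its bases overlap mt-Nd5. It stood at 1178, 567 and 447 CPM in KO and 439, 364 and 332 CPM in WT (log2 fold change 0.95, SE 0.32). KO replicate 3 and WT replicate 1 were almost level. The share of mt-Nd6 in mitochondrial protein-coding counts averaged 2.22 ± 0.215% in KO and 2.23 ± 0.308% in WT (SD, n = 3 each, exact permutation p = 1.0, two-sided). The labels do not state the strand setting of the counting, so reads of mt-Nd6 and RNA from the opposite strand cannot be told apart.

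Cytochrome b, the mitochondrial subunit of complex III, is encoded by mt-Cytb (chrM:14145-15288, plus strand). It stood at 8766, 4103 and 3981 CPM in KO and 2774, 2952 and 2478 CPM in WT. KO replicates 2 and 3 were again close to each other and above all WT libraries (log2 fold change 1.04, SE 0.30, edgeR adjusted p = 0.242). mt-Co1, the catalytic subunit of complex IV (chrM:5328-6872, plus strand), had the highest counts of the 37 genes, with 22747, 11136 and 10457 CPM in KO and 8322, 9801 and 7436 CPM in WT. Its groups did not overlap, but KO replicate 3 was near WT replicate 2 (log2 fold change 0.79, SE 0.31, edgeR adjusted p = 0.379). The other members of complexes IV and V, with mt-Nd3 and mt-Nd4l of complex I, had far lower counts and are described with their nuclear copies.

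**Figure D2:**
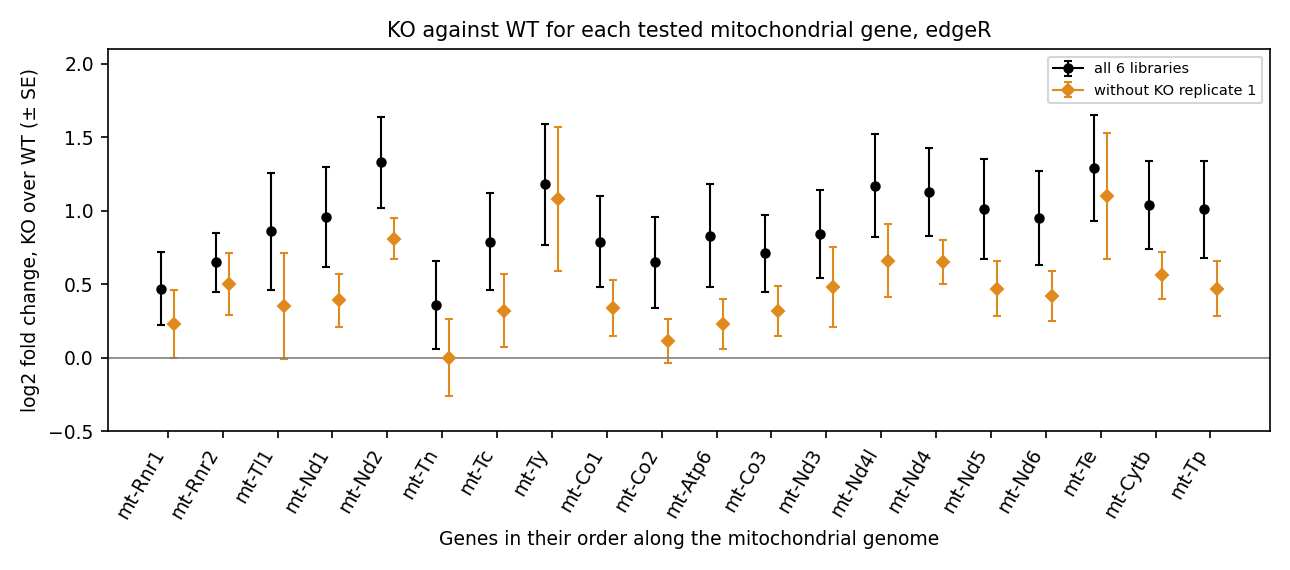
Log2 fold change of KO over WT with its standard error for the 20 tested mitochondrial genes in genome order, from all 6 libraries (black circles) and without KO replicate 1 (orange diamonds). With all libraries every estimate is above 0, and without KO replicate 1 they lie between 0.00 for mt-Tn and 1.10 for mt-Te.

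KO replicate 1 carried much of the difference. Without it the median log2 fold change of the 12 protein-coding genes was 0.45, and 9 of the 20 members had an unadjusted p under 0.05 in edgeR, against 4.09% of all genes tested in that fit, with 0 passing after adjustment. mt-Nd2 then had a log2 fold change of 0.81 (SE 0.14, edgeR adjusted p = 0.273), mt-Nd4 of 0.65 (SE 0.15), mt-Cytb of 0.56 (SE 0.16) and mt-Co1 of 0.34 (SE 0.19). For these 4 genes the standard errors were smaller than with all libraries. Without WT replicate 1, 10 of 21 tested members had an unadjusted p under 0.05 in edgeR, against 5.93% of all genes. Without WT replicate 3 it was 9 of 21, against 5.59%. In both fits 0 members passed after adjustment, where 0.45% of all genes were called as higher in KO without WT replicate 3. KO replicate 1 also had the highest summed level of the white adipocyte and smooth muscle markers given below, and the part of these in its mitochondrial counts was not tested.

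The rRNA of the small ribosomal subunit, mt-Rnr1, stood at 605, 413 and 367 CPM in KO and 309, 442 and 247 CPM in WT. WT replicate 2 lay above both KO replicates 2 and 3, so the groups overlapped (log2 fold change 0.47, SE 0.25, edgeR adjusted p = 0.527). The rRNA of the large subunit, mt-Rnr2, stood at 760.1, 571 and 587 CPM in KO and 412, 507 and 305 CPM in WT. All KO libraries lay above WT (log2 fold change 0.65, SE 0.20, edgeR adjusted p = 0.266, and 0.50, SE 0.21, without KO replicate 1). Large subunit counts per small subunit count were 1.26, 1.38 and 1.6 in KO and 1.33, 1.15 and 1.24 in WT, with overlap (exact permutation p = 0.2, two-sided). Per kilobase, both rRNAs stood below mt-Co1, mt-Cytb and mt-Nd1 in all 6 libraries. Rn7sk, a nuclear RNA without a poly(A) tail, stood at 4.93, 4.44 and 5.21 CPM in KO and 2.01, 3.33 and 1.84 CPM in WT (log2 fold change 1.02, SE 0.28, edgeR adjusted p = 0.216). Its groups did not overlap. It had the highest log2 fold change of the 6 tested genes on the list of RNAs that lack a poly(A) tail wholly or in part, whose median was 0.30. Of the 12 genes on that list 6 passed the filter on low counts, and 0 of the 6 passed in edgeR. They included the histone genes Hist1h1c at 0.28 (SE 0.13), Hist3h2a at 0.06 (SE 0.20) and H2afx at -0.32 (SE 0.15). The part of carry-over of untailed RNA in the rRNA and tRNA counts was not tested.

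The 22 tRNA genes were counted unevenly. Of the 14 on the plus strand 1 passed the filter on low counts, with 356 counts for all 14 over the 6 libraries, while 5 of the 8 on the minus strand passed, with 8400 counts for all 8. The 6 tested tRNAs are shown from GENCODE release M21 (GRCm38), 5′ to 3′, with the anticodon in capitals, because they are the tRNAs whose reads can be compared.
mt-Tp: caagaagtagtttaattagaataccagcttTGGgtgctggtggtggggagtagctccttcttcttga
mt-Tc: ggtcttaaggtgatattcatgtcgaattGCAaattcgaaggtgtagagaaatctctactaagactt
mt-Tn: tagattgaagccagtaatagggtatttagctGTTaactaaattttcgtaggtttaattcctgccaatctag
mt-Ty: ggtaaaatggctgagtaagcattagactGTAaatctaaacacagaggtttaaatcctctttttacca
mt-Te: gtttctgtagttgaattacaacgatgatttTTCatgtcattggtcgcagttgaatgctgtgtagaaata
mt-Tl1: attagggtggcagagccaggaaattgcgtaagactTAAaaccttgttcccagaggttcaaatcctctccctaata
The first 5 lie on the minus strand and mt-Tl1 on the plus strand. They carry proline, cysteine, asparagine, tyrosine, glutamate and leucine in that order.

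mt-Tp (chrM:15356-15422), the last annotated gene before the control region, had the most tRNA counts. It stood at 96.1, 49.2 and 32.3 CPM in KO and 29, 31.2 and 28.2 CPM in WT. KO replicate 3 was just above WT replicate 2, and the WT libraries were nearly level (log2 fold change 1.01, SE 0.33, edgeR adjusted p = 0.287). mt-Tc and mt-Tn flank the origin of light-strand replication, and both overlapped between groups. mt-Tc stood at 32.9, 17.4 and 13 CPM in KO and 9.55, 15.9 and 11.2 CPM in WT (log2 fold change 0.79, SE 0.33). mt-Tn stood at 21.2, 13.5 and 9.4 CPM in KO and 10.5, 14.9 and 8.96 CPM in WT (log2 fold change 0.36, SE 0.30), and its estimate was 0.00 (SE 0.26) without KO replicate 1.

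mt-Te and mt-Ty had few reads but groups that did not overlap. mt-Te had 34, 23 and 33 counts in KO and 12, 11 and 10 in WT (log2 fold change 1.29, SE 0.36, edgeR adjusted p = 0.22). mt-Ty had 33, 28 and 36 counts in KO and 11, 19 and 8 in WT (log2 fold change 1.18, SE 0.41, edgeR adjusted p = 0.319). In neither was KO replicate 1 apart from the other KO libraries, and without it the estimates were 1.10 for mt-Te and 1.08 for mt-Ty. mt-Tl1 lies between mt-Rnr2 and mt-Nd1 and had 77, 35 and 44 counts in KO and 33, 25 and 21 in WT. Its CPM values overlapped between groups (log2 fold change 0.86, SE 0.40). Of the other 16 tRNA genes, 9 had 2 to 74 counts over all libraries, and 7 (mt-Tf, mt-Tv, mt-Tq, mt-Ts1, mt-Td, mt-Tk and mt-Ts2) had 0 counts in all KO and WT libraries, which allows up to 0.182 CPM in a library for counting error alone. Of the 7, mt-Ts1, mt-Td and mt-Tk lie between mt-Co1 and mt-Atp6, which have copies on chromosome 1 described below. How reads that match both places were counted is unknown. Mature tRNAs are shorter than most sequenced fragments and carry no poly(A) tail, so these values are not levels of mature tRNA.

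Mouse chromosome 1 holds a nuclear stretch copied from mitochondrial DNA, annotated as 7 unprocessed pseudogenes within chr1:24611535-24616197 on the minus strand. Comparison of the transcript sequences showed that it carries the reading frames of mt-Co2, mt-Atp6, mt-Co3, mt-Nd3 and mt-Nd4l almost whole, 483 of the 1545 bases of mt-Co1 and 876 of the 1378 bases of mt-Nd4. The copies of mt-Co2 (Gm28661, 681 bases), mt-Atp6 (Gm10925, 678), mt-Co3 (Gm28437, 783), mt-Nd4l (Gm10222, 294) and mt-Nd4 (Gm28439) had 0 differences. Each of the remaining copies had 1 difference, A1066T between mt-Co1 and Gm29216 and T3C between mt-Nd3 and Gm28438, counted from 1 at the first base of the mitochondrial gene with its base first. A 100-base window around each is printed from GENCODE release M21 (GRCm38), with the differing base in capitals, to show how little separates the gene from its copy.
mt-Co1 (chrM:6390-6489): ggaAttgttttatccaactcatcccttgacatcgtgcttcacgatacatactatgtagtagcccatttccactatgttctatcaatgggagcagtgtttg
Gm29216 (chr1:24616089-24616188): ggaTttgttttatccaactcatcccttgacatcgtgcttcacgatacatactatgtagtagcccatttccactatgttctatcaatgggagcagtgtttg
mt-Nd3 (chrM:9459-9558): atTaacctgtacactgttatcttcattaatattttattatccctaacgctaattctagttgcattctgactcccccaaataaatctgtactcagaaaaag
Gm28438 (chr1:24613020-24613119): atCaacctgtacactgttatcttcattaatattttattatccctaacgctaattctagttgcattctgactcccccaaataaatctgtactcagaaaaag
A read that lies within an identical stretch matches both places, and the labels do not state how such reads were counted.

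The 5 genes copied almost whole had by far the lowest levels per length among the tested protein-coding genes. Their CPM per kilobase of gene lay between 19.6 and 221 for these 5 in the KO libraries and between 11.2 and 101 in the WT libraries. The 5 genes outside the copied stretch, mt-Nd1, mt-Nd2, mt-Nd5, mt-Nd6 and mt-Cytb, lay between 726 and 7663 in KO and between 539 and 2581 in WT. The genes copied in part, mt-Co1 and mt-Nd4, lay between 1443 and 14723 in KO and between 856 and 6343 in WT. Within each library the ranges of the copied and the other genes did not overlap. How reads that match a gene and its copy were counted is unknown, so these 5 values cannot be read as the level of their mRNA. The part of the copies in these low values was not tested.

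For these 5 genes the log2 fold changes lay between 0.65 and 1.17. mt-Co2, the copper-binding subunit of complex IV, stood at 151, 64.2 and 64.3 CPM in KO and 55.4, 69.2 and 53.7 CPM in WT. WT replicate 2 lay above KO replicates 2 and 3, so the groups overlapped (log2 fold change 0.65, SE 0.31, edgeR adjusted p = 0.487, and 0.11, SE 0.15, without KO replicate 1). Its copy Gm28661 stood at 128, 44.3 and 40.4 CPM in KO and 32.3, 44.2 and 39.2 CPM in WT, a like pattern. mt-Co3, a core subunit of complex IV, stood at 81, 43 and 41 CPM in KO and 32.2, 40.1 and 28.6 CPM in WT, just without overlap (log2 fold change 0.71, SE 0.26). The proton channel subunit of ATP synthase, mt-Atp6, stood at 109, 40.4 and 45.1 CPM in KO and 36.8, 42.7 and 29.6 CPM in WT, with overlap (log2 fold change 0.83, SE 0.35, and 0.23, SE 0.17, without KO replicate 1).

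mt-Nd3 of complex I stood at 15.1, 8.12 and 8.1 CPM in KO and 7.38, 5.81 and 4.25 CPM in WT, without overlap (log2 fold change 0.84, SE 0.30). mt-Nd4l, whose frame shares 7 bases with mt-Nd4, stood at 14.4, 5.82 and 6.89 CPM in KO and 4.5, 4.18 and 3.33 CPM in WT, also without overlap (log2 fold change 1.17, SE 0.35, edgeR adjusted p = 0.245). With the copy's counts added to the gene's, the ratio of KO to WT means was 1.67 for mt-Co2, 1.7 for mt-Atp6, 1.64 for mt-Co3, 1.87 for mt-Nd3 and 2.37 for mt-Nd4l. Without KO replicate 1 these ratios were 1.09, 1.21, 1.27, 1.46 and 1.72 in the same order. All 7 copies passed the filter and averaged more in KO than in WT, with 0 past edgeR's test after adjustment and 5 at an unadjusted p under 0.05, against 5.23% of all tested genes in that direction. For mt-Co1 and mt-Nd4 the copies added little, with at most 0.00293 and 0.00817 counts per count of the gene.

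ATP synthase has a further mitochondrial subunit, mt-Atp8, which lies between mt-Co2 and mt-Atp6 and was the protein-coding gene that did not pass the filter. It had 10, 7 and 9 counts in KO and 2, 4 and 2 in WT. The KO counts were all above the WT counts. It entered only the edgeR fit without a low-count filter and did not pass there (adjusted p = 0.643), so no difference was detectable in these counts. Its neighbours mt-Co2 and mt-Atp6 are both copied on chromosome 1, and the bases mt-Atp8 shares with mt-Atp6 match that copy. Only transcript sequences were compared, so the bases between those copies on chromosome 1 were not examined for the rest of mt-Atp8. How reads that match both places were counted is unknown, so the low counts of mt-Atp8 cannot be read as the level of its mRNA. Its 204 bases are shown 5′ to 3′ from GENCODE release M21 (chrM:7766-7969, GRCm38). The 43 bases it shares with the start of mt-Atp6 are in capitals, since reads there touch both frames. The way reads that touch both frames were counted is unknown.
mt-Atp8: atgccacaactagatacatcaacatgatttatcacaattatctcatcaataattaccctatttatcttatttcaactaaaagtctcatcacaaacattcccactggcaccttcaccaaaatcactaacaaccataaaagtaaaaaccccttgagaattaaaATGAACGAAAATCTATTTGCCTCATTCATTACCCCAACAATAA

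**Figure D3:**
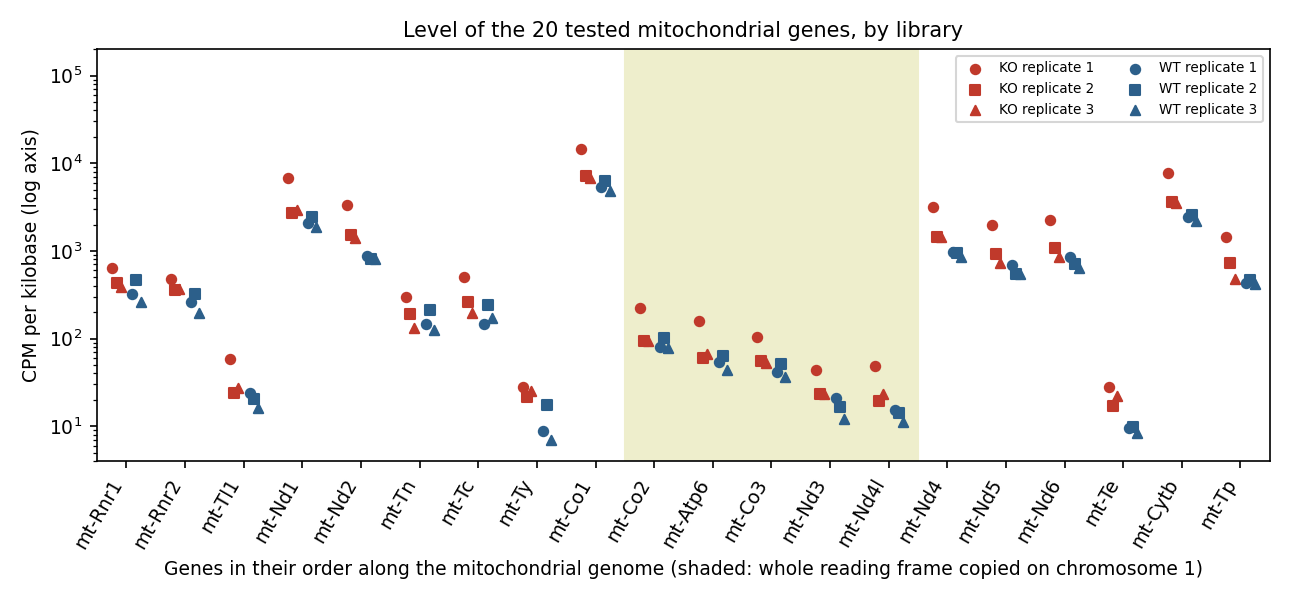
Level of the 20 tested genes in CPM per kilobase (log axis), in their order along the mitochondrial genome, with KO libraries (red) left of WT libraries (blue) and a symbol for each replicate. The shaded genes are those with a near-complete copy on chromosome 1, at 11.2 to 221, against up to 14723 for mt-Co1 in KO replicate 1.

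Among the genes with bases outside the copied stretch, the order of levels per kilobase was almost the same in each library. mt-Co1 led with a mean of 9566 ± 4471 in KO and 5514 ± 773 in WT (SD, n = 3 each), followed by mt-Cytb, mt-Nd1, the pair mt-Nd2 and mt-Nd4, then mt-Nd6 and mt-Nd5. Each step of that order held in 6 of 6 libraries, apart from mt-Nd2 and mt-Nd4, which had mt-Nd2 higher in 2 of 6. KO replicate 1, with its far larger mitochondrial share, kept the order. The places of mt-Co1 and mt-Nd4 depend on how reads from their copied stretches were counted, which is unknown.

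Within the mitochondrial protein-coding counts, 6 of the 13 genes had shares that did not overlap between genotypes. With 3 against 3 no exact permutation p under 0.05 was possible, so no gene could pass. mt-Nd2 took 6.79, 6.67 and 6.38% of them in KO and 5.28, 4.46 and 5.58% in WT. The share of mt-Cytb was 17.2, 17.2 and 17.6% in KO and 16.1, 15.7 and 16.3% in WT, and that of mt-Nd4 was 8.54, 8.41 and 8.79% in KO and 7.69, 6.96 and 7.77% in WT. For these 3 genes the KO libraries, KO replicate 1 included, were close together and all above WT. mt-Co1 went the other way, with 44.6, 46.8 and 46.2% in KO and 48.4, 52.2 and 49% in WT, and mt-Co2 and mt-Co3 also had lower shares in all KO libraries. As mt-Co2 and mt-Co3 are copied almost whole on chromosome 1, their shares cannot be read as shares of mRNA. For each of these 6 genes the two-sided exact permutation p was 0.1, the lowest value possible with 3 against 3, and 0.217 after Benjamini-Hochberg adjustment over 13 genes. The shares add up to the whole, so a higher share of some genes lowers that of others. The remaining 7, among them mt-Nd1, mt-Nd5 and mt-Nd6, overlapped between groups.

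**Figure D4:**
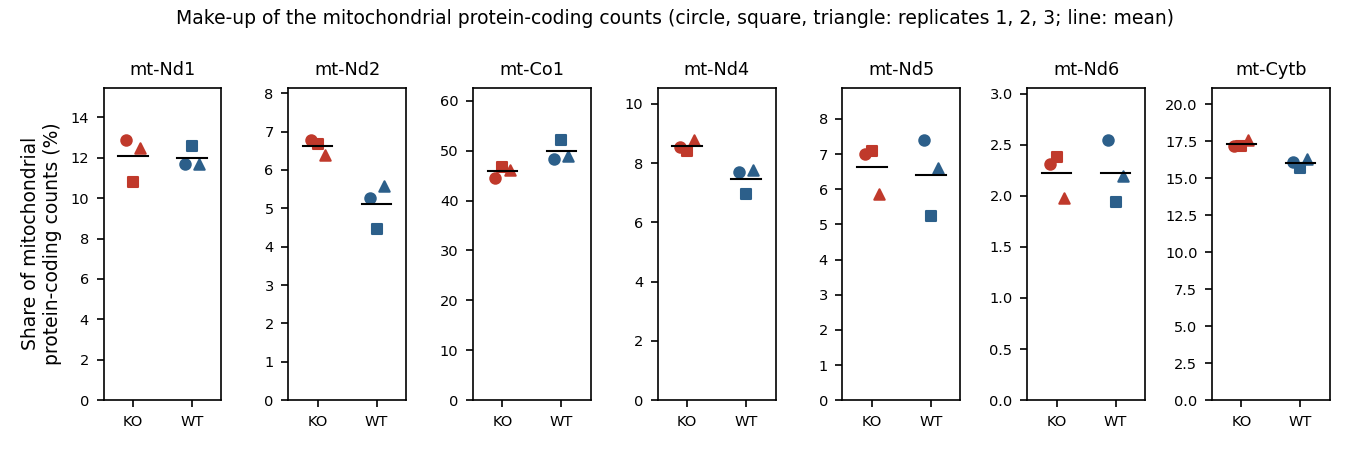
Share of mitochondrial protein-coding counts (%) taken by each of 7 genes, with a symbol for each library, KO left of WT, and a line for the mean. mt-Nd2, mt-Nd4 and mt-Cytb have higher shares in all KO libraries and mt-Co1 a lower one, 44.6 to 46.8% against 48.4 to 52.2% in WT.

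The listed nuclear subunits of the respiratory complexes had smaller log2 fold changes than the tested mitochondrial protein-coding genes. The 5 complex IV isoforms of muscle and fat were kept apart from these, with a median of 0.52 and a range of 0.21 to 2.95. Summed levels of the listed subunits overlapped between groups for each of complexes I to V. Of 76 tested subunits of complexes I to V, complex II being wholly nuclear, 67 had a higher mean in KO and 9 a lower one. By edgeR 0 passed, and 8 (10.5%) had an unadjusted p under 0.05 as higher in KO, against 5.23% of all tested genes. Median log2 fold changes were 0.14 for 36 complex I subunits, 0.03 for 4 of complex II, 0.18 for 9 of complex III, 0.14 for 11 of complex IV and 0.11 for 16 of complex V. Ndufb3, an accessory subunit of complex I, stood at 38.4, 43.2 and 38.9 CPM in KO and 29.7, 30.7 and 30.4 CPM in WT, without overlap (log2 fold change 0.41, SE 0.11, edgeR adjusted p = 0.194). Mitochondrial protein-coding counts per count of these nuclear subunits were 6.52, 3.41 and 3.2 in KO and 2.83, 2.58 and 2.25 in WT, again without overlap (exact permutation p = 0.1, two-sided). The ratio of means was 1.71, and 1.29 without KO replicate 1.

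The nuclear factors that copy, express and translate mitochondrial DNA had medians near that of all genes. The median log2 fold change was -0.06 for 10 transcription factors and termination factors, 0.07 for 15 replication genes, 0.03 for 31 RNA processing genes, 0.03 and 0.01 for 29 small and 48 large subunit proteins of the mitochondrial ribosome, and 0.02 for 34 translation factors and tRNA synthetases. By edgeR 0 of these 167 genes passed. At an unadjusted p under 0.05, 1 (0.599%) was higher and 3 (1.8%) were lower in KO, both shares below the 5.23% and 6.08% of all tested genes. Tfam, which packages mitochondrial DNA and starts its transcription, stood at 30.5, 24.7 and 26.1 CPM in KO and 32.8, 26 and 26.4 CPM in WT, with overlap (log2 fold change -0.07, SE 0.14). Log2 fold changes were -0.18 (SE 0.14) for the mitochondrial RNA polymerase Polrmt, 0.11 (SE 0.13) for its partner Tfb2m, 0.21 (SE 0.18) for Lrpprc and 0.02 (SE 0.24) for Slirp, a pair that stabilises mitochondrial mRNAs. Pnpt1, which degrades mitochondrial RNA, stood at 38.6, 37.2 and 42.7 CPM in KO and 52.5, 58 and 43.4 CPM in WT. Its KO libraries all lay below WT, though KO replicate 3 and WT replicate 3 were near each other (log2 fold change -0.38, SE 0.13, edgeR adjusted p = 0.317).

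Regulators of mitochondrial number had a median log2 fold change of 0 over 13 tested, 6 with higher and 7 with lower means in KO. The range was -0.16 to 1.53, and the highest was Prkaa2, described under other observations. The log2 fold change was -0.03 (SE 0.11) for Nrf1 and 0.00 (SE 0.10) for Esrra, both transcription factors of respiratory genes. The coactivator gene Ppargc1a was low, at 0.573, 1.12 and 1.3 CPM in KO and 0.217, 0.363 and 0.919 CPM in WT, with overlap (log2 fold change 1.01, SE 0.58). The 21 genes of mitochondrial membranes and matrix had a median log2 fold change of 0.13, with 16 higher and 5 lower means in KO. By edgeR 0 of them passed, with 4 at an unadjusted p under 0.05 as higher in KO, against 5.23% of all tested genes. KO lay above WT without overlap for 6 and below for 0, against 7.83% and 9.01% of all tested genes. Their summed level was 2680.1, 2483 and 2785 CPM in KO and 2271, 2391 and 2365 CPM in WT, without overlap. Among them, the mRNA of citrate synthase, Cs, stood at 172, 189.5 and 168 CPM in KO and 174, 192 and 187 CPM in WT (log2 fold change -0.06, SE 0.11). The outer membrane channel gene Vdac1 had a log2 fold change of 0.17 (SE 0.11). Taking all nuclear lists together, 16 of 282 tested genes (5.67%) had an unadjusted edgeR p under 0.05 as higher in KO. The share of all genes was 5.23%. As lower there were 3 (1.06%), against 6.08%. The mean was higher in KO for 67.0% of the 282, against 51.2% of all tested genes. Of the 282, 32 (11.3%) lay above WT without overlap and 6 below, against 7.83% and 9.01%.

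**Figure D5:**
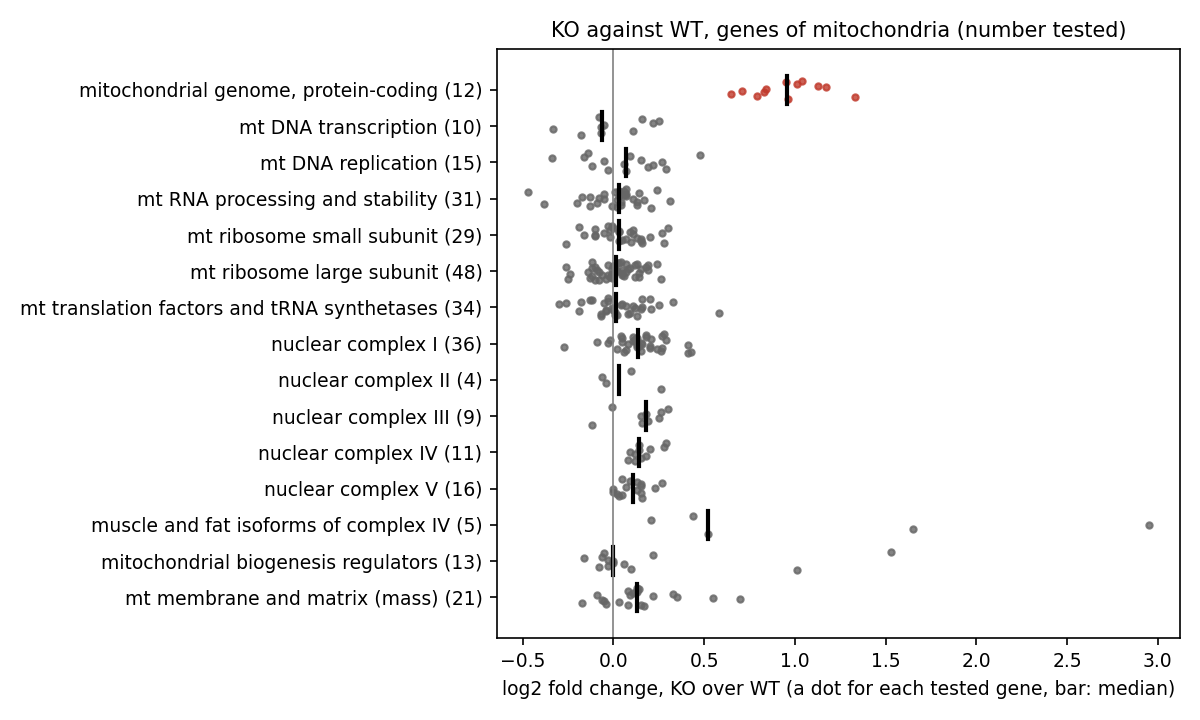
Log2 fold change of KO over WT for tested protein-coding genes of the mitochondrial genome (red) and for nuclear genes of mitochondria by list (grey), with a dot for each gene and a bar for the median. The mitochondrial genes have a median of 0.95, and the medians of the 5 nuclear complexes lie between 0.03 and 0.18.

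Markers of several cell types also differed between libraries. The summed level of 10 smooth muscle markers was 2778, 1790.4 and 2304 CPM in KO and 1142, 1528 and 1025 CPM in WT, with KO above WT throughout. KO libraries lay above WT without overlap for 9 of these 10 markers, against 7.83% of all tested genes. White adipocyte markers, 15 in all, summed to 2820.3, 1835 and 1911 CPM in KO and 451, 469 and 1839 CPM in WT. Of these, 4 lay above WT without overlap, against the same 7.83%. In the sum, WT replicate 3 was level with KO replicates 2 and 3. Brown adipocyte markers, 10 in all, summed to 24.6, 88.5 and 29.7 CPM in KO and 7.49, 6.84 and 21.1 CPM in WT. Their defining gene Ucp1 stood at 0.573, 16.1 and 0.558 CPM in KO and 0.0543, 0.242 and 2.47 CPM in WT. Its level was highest in KO replicate 2. All 7 tested members of the list averaged more in KO than in WT, 2 of them without overlap, against 7.83% of all tested genes. Skeletal muscle markers, 11 in all, summed to 8.48, 8.58 and 1395 CPM in KO and 24, 12.2 and 7.7 CPM in WT, high in KO replicate 3 alone. Heart muscle markers, 7 in all, summed to at most 16.4 CPM in any KO library and 10.7 CPM in any WT library, with Myh6 at 0.229, 0.306 and 0 CPM in KO and 0, 0 and 0.115 CPM in WT and Nppa at 0 in WT. Among the complex IV isoforms used by muscle and fat, Cox8b stood at 6.13, 22.4 and 10.8 CPM in KO and 0.326, 0.545 and 4.19 CPM in WT, and Cox7a1 at 1.37, 3.98 and 3.54 CPM in KO and 0.597, 1.03 and 1.21 CPM in WT. Both are also on the list of brown adipocyte markers. T cell markers, 6 in all, summed to 105, 138 and 115 CPM in KO and 180, 212 and 176 CPM in WT, lower in every KO library. The part of each of these cell types in the mitochondrial counts was not tested.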

How the data were processed

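Total RNA from mouse abdominal aorta was extracted with Trizol and columns, selected on poly-T beads and primed with random hexamers, per the labels' protocols. The deposited table holds raw read counts per gene. Per the submitters' processing notes, the tools were HISAT2 2.0.5 and featureCounts 1.5.0-p3 and the build was GRCm38. Strand, multi-mapping and annotation release are not stated.

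All 37 mt- genes were taken from the table. Positions and sequences came from GENCODE release M21 (GRCm38), and nuclear copies were found with blastn 2.17.0 at an identity of at least 95% over at least 100 bases. The counts went into edgeR 4.0.16 (R 4.3.3). There filterByExpr left 16237 genes, libraries were scaled by TMM, and KO was tested against WT by the quasi-likelihood test, with p-values adjusted by Benjamini-Hochberg across the whole table and a threshold of 0.05. The standard error was the log2 fold change divided by the square root of F. CPM used TMM-scaled totals. Shares were compared by exact permutation over libraries. The edgeR test was tested on simulated data first. Alternatives used other scalings and filters, DESeq2 1.42.0, limma-voom (limma 3.58.1), a replicate block, and leaving out each library in turn. No 2 libraries agreed within sampling noise (chi-square per degree of freedom 22.5 to 68 over genes with at least 20 counts).

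The mt- genes, the gene lists and the naming rule (all mt- genes, a fixed panel, and up to 3 genes of each list by smallest unadjusted p or, for cell type markers, highest mean CPM) were chosen with earlier results of these data known. Figures were drawn with matplotlib 3.10.9.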

Additional observations from a re-analysis of the deposited data

How the results depend on the processing

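The log2 fold change of all 20 tested members stayed above 0 under the 15 alternatives, the lowest being 0.0027 for mt-Tn without KO replicate 1. None of the 20 passed under 13 of them. Without a low-count filter edgeR called 11, with 644 genes over the whole table and 4 of the nuclear mitochondrial genes (Hspd1, Cox8b, Prkaa2 and Cox7a1). With DESeq2 there were 3 members, 451 genes and 3 nuclear genes, of which Hspd1, Prkaa2 and Cox7a1 are the same. limma-voom called 0 genes over the whole table and the fit with a replicate block 0, against 2. With a library left out, calls ranged from 0 to 155 over the whole table, stayed at 0 among the members and from 0 to 1 among the nuclear genes; the 155 and the 1, Cox8b, came without WT replicate 3, and 0 came without KO replicate 1 or WT replicate 1. The replicate numbers do not pair the libraries: deviations of same-numbered libraries correlated at -0.101, -0.062 and -0.12. The cause of these differences was not tested. The median log2 fold change of the protein-coding members ranged from 0.83 to 0.99 under other scalings, filters and tools and from 0.45 to 1.18 with a library left out. The other scalings moved the median of all genes to at most 0.04. The KO minus WT difference in the mt-Nd6 share, -0.00308 percentage points, was -0.354 over the protein-coding genes outside the copied stretch, turned to 0.00249 on the log2 scale and ranged from -0.147 to 0.16 with a library left out. The other shares and ratios kept their sign under the alternatives run.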

Other observations

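The 3 genes of smallest unadjusted p on the list of mitochondrial membrane and matrix genes were Hspd1, Hspa9 and Hspe1, and 0 of them passed. Hspd1, which folds imported proteins, stood at 165, 197 and 325 CPM in KO and 139.7, 144 and 141 CPM in WT, without overlap (log2 fold change 0.70, SE 0.22, edgeR adjusted p = 0.277). Its partner Hspe1 had a log2 fold change of 0.55 (SE 0.20) with overlapping groups, and Hspa9, which pulls proteins into the matrix, stood at 165, 161 and 173 CPM in KO and 142, 113 and 136 CPM in WT (log2 fold change 0.35, SE 0.12). KO replicate 3 was highest for Hspd1, not KO replicate 1. Prkaa2, a catalytic subunit of the energy sensor AMPK, stood at 4.24, 3.42 and 6.47 CPM in KO and 1.3, 1.57 and 2.01 CPM in WT, without overlap (log2 fold change 1.53, SE 0.33, edgeR adjusted p = 0.137).

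A second set of nuclear copies lies on chromosome 2, named here after their values were seen. Gm13340 matches mt-Co1 over 1545 bases at 97.6% identity and had 116, 58 and 56 counts in KO and 53, 55 and 55 in WT, high in KO replicate 1 alone. Gm13341, at 95.9% identity to mt-Co2, had 14, 5 and 0 counts in KO and 3, 5 and 2 in WT.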
